A study of Arabidopsis thaliana with 24 samples.

Results

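Transcript levels were compared between the siliques (seed pods) and the shoots (all aerial parts of the seedling) of wild-type Arabidopsis thaliana of the accession Col-0. Every WT silique library and every WT shoot library of the series entered, 3 against 3, which is 6 of its 24 libraries, and every line of the deposited table that could be tested was kept. The shoots were taken from plants aged 2 weeks on MS plates, a synthetic salt medium, and the siliques from plants aged 5 weeks in soil. Both were grown in long days, and the labels name no transgene and no chemical treatment for either group. Organ, age and medium changed together and cannot be told apart. The other libraries are roots and inflorescences of WT and the same tissues of the mutant clf-28, which lacks the Polycomb methyltransferase CURLY LEAF. The design calls the 3 libraries of a group biological replicates.

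A silique is a fruit wall (valves, margins and the replum with its septum) around seeds, and each seed is a seed coat, an endosperm and an embryo. MADS-box factors first give the carpel and ovules their identity and then divide the valve from its margin. After fertilization the seed coat makes tannins and mucilage, the endosperm feeds the embryo, and a network led by LEC1, FUS3 and ABI3 later starts the storage of protein and oil. A shoot of this age is mostly expanding leaf, with the genes of leaf polarity, stomata and trichomes at work. Both organs are green. A level here is a mean over all cells of the organ, so fewer cells of a type and less RNA per cell cannot be told apart.

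Levels are the deposited FPKM, in which the fragments of a transcript are divided by its length and by the depth of the library. The read depth itself is not known. Differences are siliques minus shoots on the log2(FPKM + 1) scale, with the standard error after ±, and understate the change of weakly expressed genes. P-values are two-sided and adjusted over all 20665 lines tested; a line passed at an adjusted p under 0.05. The 3 shoot libraries resembled each other, with Spearman correlations over the lines tested of 0.971 to 0.989, and silique replicates 2 and 3 did so with 0.986. Silique replicate 1 stood apart from both, at 0.896 and 0.899. A silique and a shoot library correlated at 0.691 to 0.720. Results are therefore also given without silique replicate 1. Each value listed at 0 may be a failed estimate, and 83 lines tested were listed at 0 in 1 library and at 10 FPKM or more in another of the same group. Of these, 60 belonged to genes that the table spreads over several lines, and any such gene is uncertain.

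The transcriptomes of the organs differed at about every other line. Of 20665 lines, 10506 passed (50.8%), 6178 higher in siliques (29.9%) and 4328 lower (20.9%). At least 2-fold, 3639 were higher and 2222 lower, and the median difference over all lines was 0.09. Large rises outnumbered large falls, with 338 lines at least 32-fold higher and 52 at least 32-fold lower. Without silique replicate 1, 7182 lines were higher (34.8%) and 5958 lower (28.8%); 10331 lines were called both ways in the same direction and 0 in opposite directions. These shares of all lines are what any count of a gene group below is read against. Silique and shoot values did not overlap for 13153 of the 20665 lines, so a lack of overlap was common. A gene under 1 FPKM in all libraries of 1 organ entered the test only through the other organ and was bound to be higher there, so a group with many such genes had its direction set by the filter on low values. The split between higher and lower depends on the scaling. Higher lines were 58.8% of those called on the deposited scale and 44.9% after quantile normalization, which moved the median difference to -0.11.

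**Figure D1:**
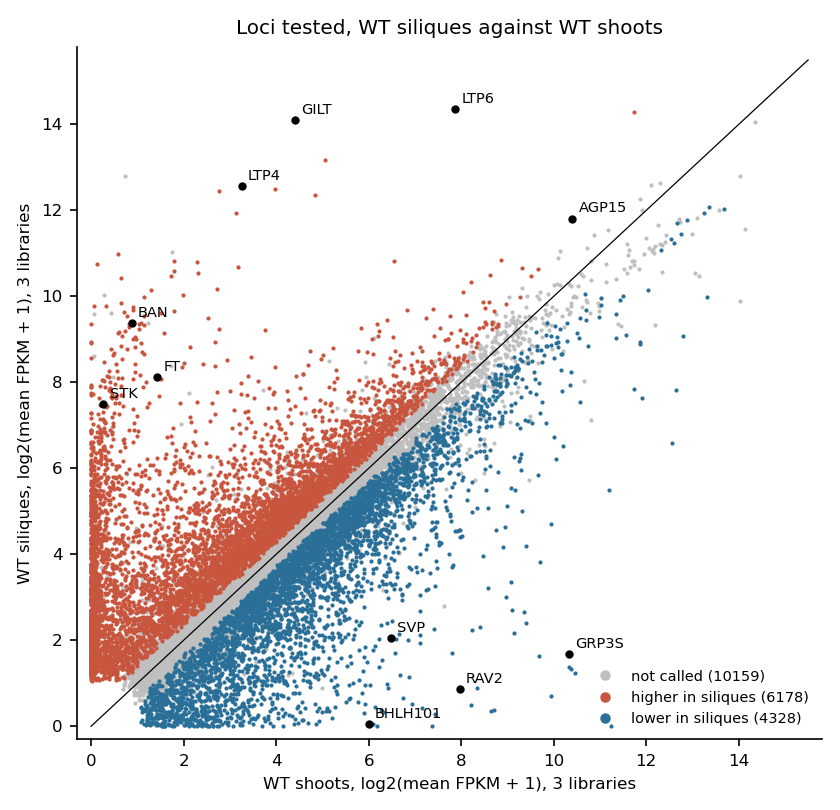
Mean level of each of the 20665 lines tested in WT shoots (x axis) and WT siliques (y axis), both as log2(mean FPKM + 1) of 3 libraries, with equal levels on the diagonal. Lines that passed are coloured, 6178 higher and 4328 lower in siliques; GILT, LTP4 and LTP6 lie far above the diagonal and GRP3S and RAV2 far below it.

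Small secreted proteins stood among the largest rises, and cysteine-rich peptides made up much of the first 15. The 15 were taken among called lines with a gene symbol, so other lines could not enter. A symbol stood on 10259 of the 34178 lines of the table. The 15 also had to reach a mean of 5 FPKM in the higher organ and to show no overlap between organs. GILT (chr4:7583272-7584630), named for its likeness to a thiol reductase of the animal lysosome, was at 0.121, 40.2 and 19.96 FPKM in shoots and 14073, 18950.4 and 19519.5 FPKM in siliques, a difference of 10.78 ± 1.31 (adjusted p = 0.00105). LTP4 (chr5:23925085-23925852), a lipid transfer protein that carries lipids outside the cell, was at 0.805, 15.3 and 9.57 FPKM in shoots and 3219, 7003 and 7868 FPKM in siliques, a difference of 9.7 ± 0.86 (adjusted p = 3.03e-04). Its neighbour LTP3 was at 4.87, 19.7 and 19.8 FPKM in shoots and 2708, 6718 and 7829.9 FPKM in siliques, a difference of 8.58 ± 0.64 (adjusted p = 1.49e-04). Silique values lay above shoot values by orders of magnitude in each case, and silique replicate 1 was the lowest of the silique libraries. THI2.1, a thionin (a small antimicrobial peptide), was at 0.0854, 4.3 and 2.59 FPKM in shoots and 539, 1782 and 1951 FPKM in siliques, a difference of 8.81 ± 0.75 (adjusted p = 2.49e-04, and 9.41 without silique replicate 1). BAN, the anthocyanidin reductase of seed coat tannins, was at 0.0405, 1.59 and 0.875 FPKM in shoots and 428, 827 and 748 FPKM in siliques, a difference of 8.55 ± 0.40 (adjusted p = 2.97e-05). The cytochrome P450 gene CYP709B1 was at 0, 1.22 and 0.511 FPKM in shoots and 393, 578 and 655 FPKM in siliques, a difference of 8.47 ± 0.34 (adjusted p = 1.72e-05). None of these groups of values overlapped, which the choice of the 15 required. LTP3 and LTP4 are close copies in tandem, so the split of reads between them is uncertain.

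Of the 15 largest rises, 6 were LCR genes, which encode low-molecular-weight cysteine-rich (defensin-like) peptides, and 1 was SCRL10 of the related SCR-like group. LCR73 was at 0.954, 4.05 and 2.4 FPKM in shoots and 1371, 1898 and 2124 FPKM in siliques, a difference of 9.1 ± 0.37 (adjusted p = 1.85e-05). LCR38 was at 0, 8.56 and 3.41 FPKM in shoots and 625, 1912 and 1937 FPKM in siliques, a difference of 8.57 ± 0.90 (adjusted p = 5.82e-04). LCR21 was listed at 0 in every shoot library and at 209.9, 424 and 492 FPKM in siliques (adjusted p = 1.46e-05). The other LCR genes among the 15 were LCR30, LCR35 and LCR48, at 279 FPKM or more in each silique library and at most 1.9 FPKM in each shoot library. SCRL10 was at 0, 1.77 and 0.134 FPKM in shoots and 335, 999 and 1063 FPKM in siliques, a difference of 8.92 ± 0.59 (adjusted p = 9.16e-05). The other 2 of the 15 were SVL3 and BAM5, a beta-amylase gene on several lines and so uncertain. Counted by symbol after these values were seen, 50 of 77 LCR lines could be tested, of which 48 were higher and 0 lower. Of the 50, 25 were listed at 0 in every shoot library and could only come out higher. Any LCR or SCRL line above 0 but under 1 FPKM in every shoot library was bound in the same way. Such lines were not counted. The number of higher LCR lines is therefore a description and is not set against the share over all lines. The other 27 were too low in too many libraries to be tested, and a line that passed the filter through the siliques alone had to differ. LCR68 and LCR69, named after their values were seen, were the exceptions among those tested. LCR69 was at 1171, 1182 and 1011 FPKM in shoots and 2189.6, 689.6 and 825 FPKM in siliques (-0.57 with adjusted p = 0.0163 without silique replicate 1), and LCR68 at 400.3, 274 and 274 FPKM in shoots and 303, 314 and 352 FPKM in siliques. Summed over the LCR lines, FPKM was 1304 to 1573 in shoots, mostly from LCR68 and LCR69, and 8197 to 11246 in siliques. Of 27 SCRL lines 12 were tested, 11 higher and 1 lower, and 6 of the 12 were listed at 0 in every shoot library. The lower one was SCRL7, at 29.7, 22.5 and 28.7 FPKM in shoots and 3.79, 4.24 and 3.82 FPKM in siliques.

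Arabinogalactan proteins, glycoproteins of the cell surface, were less one-sided. All 30 AGP lines were tested, 18 were higher and 4 lower, with a median difference of 1.42. AGP11 entered the test only through siliques, and AGP lines of this kind were not counted. AGP15, among the 10 most abundant transcripts of siliques that were at least 2-fold higher, was at 1326, 1385 and 1341 FPKM in shoots and 4107, 3085 and 3551 FPKM in siliques, a difference of 1.4 ± 0.19 (adjusted p = 0.00163). Lipid transfer proteins went both ways: LTP6 was at 129, 303 and 269 FPKM in shoots and 7353, 26518 and 28974 FPKM in siliques, a difference of 6.34 ± 0.63 (adjusted p = 4.62e-04, and 6.97 without silique replicate 1), whereas LTP5 was at 895, 615 and 591 FPKM in shoots and 91.8, 142 and 176 FPKM in siliques, a difference of -2.37 ± 0.29 (adjusted p = 0.00106). LTP6 was the most abundant line of silique replicates 2 and 3 and held 2.22% and 2.24% of their summed FPKM. LTP3, LTP4, LTP6 and GILT together held 2.56%, 4.95% and 4.96% of the summed FPKM of the 3 silique libraries. In shoots they held at most 0.0297%. The vegetative storage protein genes VSP1 and VSP2 share 1 merged line, which was at 9.91, 48.2 and 38.4 FPKM in shoots and 2221, 12234 and 13106 FPKM in siliques, a difference of 8.0 ± 0.88 (adjusted p = 7.18e-04, and 8.84 without silique replicate 1). Among other families counted by symbol, 7 of 14 tested alpha-expansins (EXPA, cell wall loosening) were higher and 1 lower, 4 and 6 of 23 xyloglucan transferases (XTH), and 3 and 7 of 16 glutathione transferases (GSTU). Over all lines 29.9% were higher and 20.9% lower, and the share of XTH genes that were lower is close to the latter. No SAUR gene (small auxin up-regulated RNA, a family of small proteins) of 14 passed by limma; without silique replicate 1, 7 were higher.

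**Figure D2:**
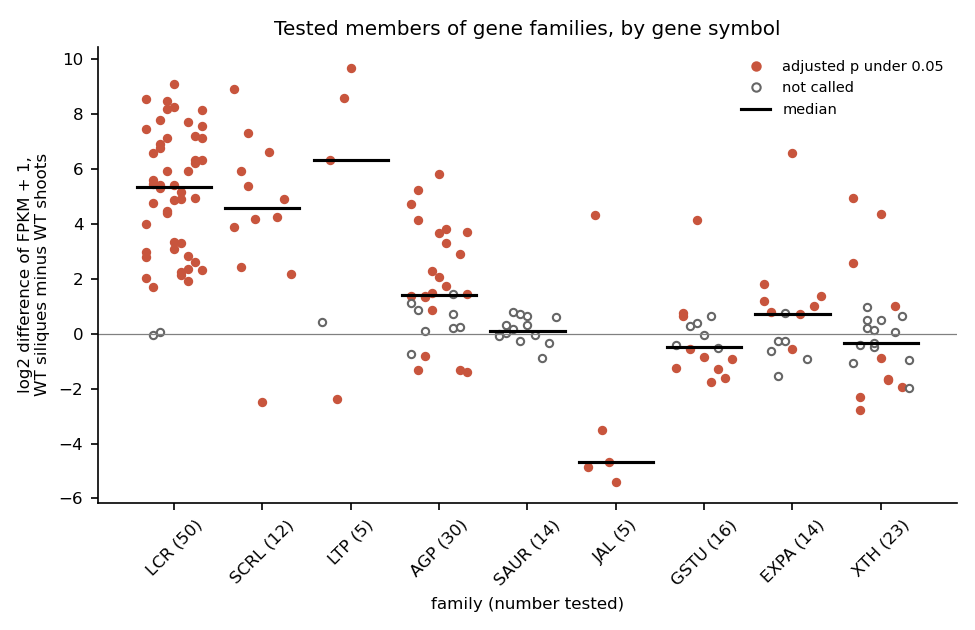
Differences between WT siliques and WT shoots (y axis, log2 of FPKM + 1) of the tested members of 9 families grouped by symbol (x axis, number tested in brackets). Filled points passed the test and black bars are medians. In siliques 48 of 50 LCR and 11 of 12 SCRL members were higher, and 4 of 5 jacalin-related lectins (JAL) were lower. Of the tested LCR and SCRL members, 25 and 6 were listed at 0 in every shoot library. Members above 0 but under 1 FPKM in every shoot library were not counted.

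Transcripts far higher in siliques were not at the same low level in each shoot library. Among 325 lines at least 32-fold higher in siliques, leaving out genes on several lines, the median level in shoots was 0%, 0.28% and 0.156% of the silique mean in replicates 1, 2 and 3. Shoot replicate 1 was the lowest of the 3 for 191 of them and shoot replicate 2 the highest for 191. GILT and BAN show this order. The source of these low values was not tested, and each fold change of a gene near 0 in shoots rests on them.

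The 15 largest falls, chosen by the same rule, held no LCR gene and mixed enzymes, wall proteins and regulators. GRP3S (chr2:1966816-1968037), a short glycine-rich protein, was at 1491, 1326 and 1025 FPKM in shoots and 2.08, 2.35 and 2.17 FPKM in siliques, a difference of -8.63 ± 0.16 (adjusted p = 4.72e-06). RAV2 (chr1:25880323-25882222), also called TEMPRANILLO 2, a repressor of FT in seedlings, was at 250.3, 235 and 263 FPKM in shoots and 1.53, 0.444 and 0.461 FPKM in siliques, a difference of -7.16 ± 0.24 (adjusted p = 9.81e-06). THI2.2, the sister thionin of THI2.1, was at 129, 242 and 298 FPKM in shoots and 2.19, 1.88 and 2.63 FPKM in siliques, a difference of -6.04 ± 0.32 (adjusted p = 4.03e-05). THI2.1 and THI2.2 thus moved in opposite directions. CYP71B7, a cytochrome P450, was at 125, 85.6 and 105 FPKM in shoots and 0.529, 0.668 and 0.53 FPKM in siliques, a difference of -6.06 ± 0.16 (adjusted p = 6.49e-06). IGMT4, an indole glucosinolate methyltransferase, was at 346, 274 and 285 FPKM in shoots and 9.89, 0.775 and 0.578 FPKM in siliques, a difference of -6.59 ± 0.74 (adjusted p = 7.85e-04, and -7.49 without silique replicate 1). UGT72E1, a glucosyltransferase of monolignols, was at 111, 55.1 and 62.5 FPKM in shoots and 0.265, 0.266 and 0.354 FPKM in siliques, a difference of -5.83 ± 0.27 (adjusted p = 2.66e-05). Among the 15 were also 3 genes spread over several lines, which are uncertain. ROPGAP3 was listed at 0 in each silique library and at 762, 3004 and 3485 FPKM in shoots, and no fold is given for it. RVE8 was at 625, 493 and 715 FPKM in shoots and 0, 212 and 0 FPKM in siliques (adjusted p = 0.0401) (-5.37 with adjusted p = 0.0959 without silique replicate 1), and with the replicate number as a block its adjusted p was 0.0513. BT2, the other of these genes, is given with the nitrate genes.

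EXT4 (an extensin of the cell wall), the lipid-transfer-like AZI1 and EARLI1, and PYK10 and PBP1 of the ER body fell as well. These genes were highest in shoot replicate 1. AZI1 was at 1479.6, 261 and 295 FPKM in shoots and 0.106, 5.96 and 6.72 FPKM in siliques, a difference of -6.96 ± 0.99 (adjusted p = 0.00201, and -6.05 without silique replicate 1). EARLI1 was at 1753, 366 and 397 FPKM in shoots and 0.306, 18.9 and 20.2 FPKM in siliques, a difference of -6.28 ± 1.24 (adjusted p = 0.00729, and -4.95 without silique replicate 1). EXT4 was at 1314, 355 and 303 FPKM in shoots and 6.95, 3.69 and 5.14 FPKM in siliques, a difference of -6.42 ± 0.58 (adjusted p = 3.24e-04). In WT roots their means were 486 ± 365, 1009 ± 794 and 854 ± 318 FPKM (SD, n = 3). ER bodies are stores of beta-glucosidase in roots and seedlings. All 5 tested genes of the ER body, a list added after these values were seen, were lower. PYK10, the main beta-glucosidase, was at 939.8, 321 and 362 FPKM in shoots and 2.18, 9.9 and 15.6 FPKM in siliques, a difference of -5.85 ± 0.71 (adjusted p = 0.00105, and -5.16 without silique replicate 1). NAI2, needed to form the ER body, was at 178, 51.3 and 55.9 FPKM in shoots and 3.28, 2.85 and 3.08 FPKM in siliques, a difference of -4.32 ± 0.47 (adjusted p = 7.06e-04). Most tested jacalin-related lectins (JAL) were lower as well, among them JAL34 at 168, 65.4 and 68.9 FPKM in shoots and 0.494, 1.51 and 1.79 FPKM in siliques. Jacalin-related lectins did not all do so: JAL23 was at 0.158, 7.6 and 0.584 FPKM in shoots and 12.4, 87.8 and 103 FPKM in siliques, a difference of 4.31 ± 1.07 (adjusted p = 0.0173, and 5.26 without silique replicate 1, and adjusted p up to 0.0607 with another library left out). PYK10, PBP1 and NAI2 were each highest in shoot replicate 1, by several times.

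Of 11 root marker genes 6 were tested and 4 were lower in siliques, none higher; 4 of the 6 entered the test only through shoots. The summed FPKM of the list was 333 to 971 in shoots, 5.33 to 23.4 in siliques and 5654 to 10357 in WT roots, most of it PYK10. CASP1, which marks the root endodermis, was at 15.4, 2.57 and 8.28 FPKM in shoots and 0, 0.299 and 0.345 FPKM in siliques, a difference of -2.76 ± 0.54 (adjusted p = 0.00735). The root hair genes EXPA7, EXPA18 and COBL9 were under 1 FPKM in all 6 libraries. The part of root tissue in the shoot samples was not tested.

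Genes that pattern the fruit and carpel, the markers of the labelled organ, were present in all 3 silique libraries, and most were near 0 in shoots. Of 16 tested, 11 were higher and 1 lower. Of the 16, 8 were under 1 FPKM in every shoot library and entered the test only through siliques, so the count is a description and is not set against the share over all lines. STK (chr4:6236375-6240932), the MADS-box factor of ovule identity, was at 0.0258, 0.378 and 0.196 FPKM in shoots and 142, 186 and 211 FPKM in siliques, a difference of 7.23 ± 0.19 (adjusted p = 6.49e-06). SHP1, a factor of the valve margin, was at 0.438, 0.459 and 0.474 FPKM in shoots and 47.4, 72.5 and 77.4 FPKM in siliques, a difference of 5.49 ± 0.20 (adjusted p = 1.32e-05). Its redundant copy SHP2 was at 0.48, 0.264 and 0.223 FPKM in shoots and 68.6, 70.9 and 76.1 FPKM in siliques, a difference of 5.79 ± 0.12 (adjusted p = 4.82e-06). These ovule and margin genes were almost absent from shoots. FUL, which keeps the valve growing, was at 0.287, 0.908 and 0.721 FPKM in shoots and 45.1, 36.4 and 38.8 FPKM in siliques, a difference of 4.66 ± 0.18 (adjusted p = 1.65e-05). Downstream, IND, which builds the dehiscence zone where the pod opens, was at 0.0948, 0.0723 and 0.0177 FPKM in shoots and 10.1, 8.57 and 8.84 FPKM in siliques, a difference of 3.26 ± 0.12 (adjusted p = 1.49e-05). ALC, its partner there, was at 11.6, 8.6 and 7.16 FPKM in shoots and 98.3, 114 and 151 FPKM in siliques, a difference of 3.6 ± 0.22 (adjusted p = 7.15e-05). AG, the carpel identity gene, was at 0.174, 0.408 and 0.365 FPKM in shoots and 28.1, 55.4 and 56.4 FPKM in siliques, a difference of 5.12 ± 0.29 (adjusted p = 4.99e-05), and SEP3, its cofactor, at 11.5, 6.31 and 4.56 FPKM in shoots and 107, 175 and 203 FPKM in siliques, a difference of 4.3 ± 0.37 (adjusted p = 2.60e-04). For each of these genes the lowest silique value lay above the highest shoot value, as the plot of levels by library shows.

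RPL, which limits the margin genes to their place, was at 9.97, 10.7 and 10.8 FPKM in shoots and 14.8, 23.004 and 24.2 FPKM in siliques, a difference of 0.88 ± 0.19 (adjusted p = 0.011), and INO of the outer integument at 0, 0.0171 and 0 FPKM in shoots and 5.4, 6.58 and 6.85 FPKM in siliques, a difference of 2.85 ± 0.13 (adjusted p = 2.59e-05). ADPG1, a polygalacturonase of pod opening, was at 0.0223, 0.0177 and 0 FPKM in shoots and 15.8, 3.41 and 3.84 FPKM in siliques, a difference of 2.81 ± 0.52 (adjusted p = 0.00563, and 2.19 without silique replicate 1), and its level in silique replicate 1 was the highest. KNAT6 was the 1 gene that fell, at 4.53, 4.14 and 3.97 FPKM in shoots and 2.93, 1.89 and 2.0 FPKM in siliques, a difference of -0.68 ± 0.16 (adjusted p = 0.0151, and adjusted p up to 0.0565 with another library left out). BEL1, NTT, SPT and KNAT2 did not pass; BEL1 was at 11.2, 13.8 and 16.5 FPKM in shoots and 16.2, 21.3 and 22.3 FPKM in siliques (adjusted p = 0.066, and 0.0204 with the replicate number as a block) (0.64 with adjusted p = 0.0193 without silique replicate 1). SPT was at 5.46, 4.63 and 4.49 FPKM in shoots and 14.96, 5.67 and 7.03 FPKM in siliques. Some genes of early carpels missed the filter and were not tested: CRC reached at most 0.0575 FPKM in siliques, and HEC2 stayed under 1 FPKM in all 6 libraries. HEC1, of carpel margins and style, was at 1.37, 1.36 and 0.876 FPKM in shoots and 0.0233, 0.0116 and 0.0263 FPKM in siliques, so all 3 shoot values lay above the silique values. Its relative HEC3 was at 0.267, 0.137 and 0.0703 FPKM in shoots and 0.608, 1.29 and 0.753 FPKM in siliques, with the order turned round.

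**Figure D3:**
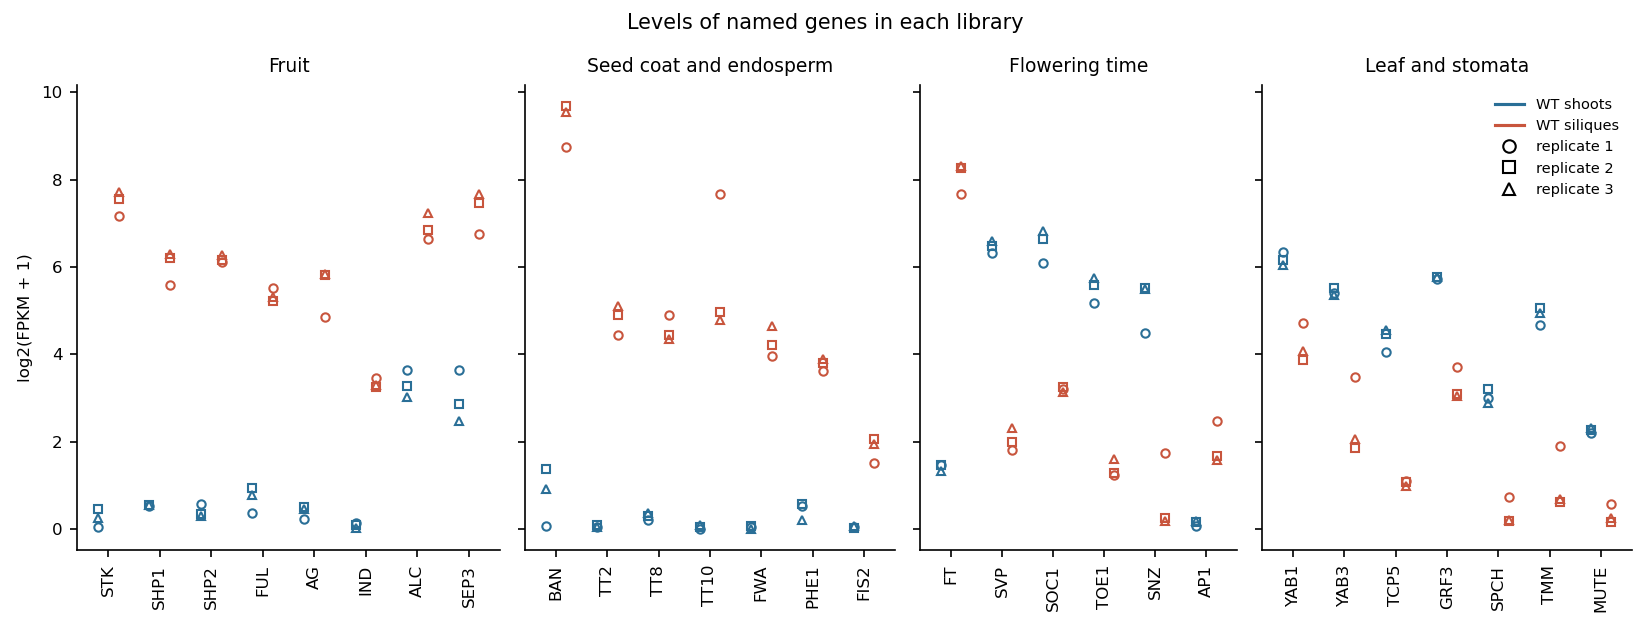
Level of named genes in each library (y axis, log2 of FPKM + 1), with shoots in blue, siliques in red and a marker for each replicate number. Fruit, seed coat and endosperm genes and FT lay higher in the 3 silique libraries, and SVP, SOC1, TOE1, SNZ and the leaf and stomatal genes lay lower; TT10 and SNZ were higher in silique replicate 1 than in replicates 2 and 3.

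Of 15 seed coat genes tested, 13 were higher and 2 lower, with a median difference of 4.25, or 4.07 without the gene listed at 0 in shoots. As 9 of them entered the test only through siliques, these figures are a description. TT2, TT8 and TT1 are regulators of the tannin pathway; TT2 was at 0.0289, 0.0712 and 0.0289 FPKM in shoots and 20.6, 28.7 and 33.7 FPKM in siliques, a difference of 4.75 ± 0.20 (adjusted p = 1.89e-05), and TT8 at 0.151, 0.237 and 0.296 FPKM in shoots and 28.7, 20.7 and 19.4 FPKM in siliques, a difference of 4.27 ± 0.18 (adjusted p = 1.94e-05). Tannin transport followed, with TT12 at 0.0214, 0.261 and 0.153 FPKM in shoots and 21.7, 58.4 and 51.4 FPKM in siliques and TT19 at 0.496, 2.74 and 2.35 FPKM in shoots and 166, 319 and 316 FPKM in siliques. TT10, the laccase that browns the coat, was at 0, 0.0363 and 0.0584 FPKM in shoots and 203, 30.3 and 26.8 FPKM in siliques, a difference of 5.77 ± 0.77 (adjusted p = 0.00149, and 4.84 without silique replicate 1). Its level in silique replicate 1 was several times that of the other silique libraries, while BAN was lowest there. Of the mucilage genes, MYB61 was at 0.637, 0.296 and 0.626 FPKM in shoots and 37.3, 49.1 and 48.9 FPKM in siliques, a difference of 4.92 ± 0.17 (adjusted p = 1.06e-05), and the peroxidase gene PER36 was listed at 0 in shoots and at 46.8, 10.6 and 11.5 FPKM in siliques. TTG1, which acts in trichomes and roots as well, fell, at 71.8, 65.3 and 72.3 FPKM in shoots and 49.9, 47.5 and 46.3 FPKM in siliques, a difference of -0.53 ± 0.10 (adjusted p = 0.0054), as did the galactosidase gene MUM2, at 91.2, 68.7 and 77.2 FPKM in shoots and 57.6, 29.99 and 27.9 FPKM in siliques, a difference of -1.09 ± 0.29 (adjusted p = 0.0237, and adjusted p up to 0.0772 with another library left out).

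Of 16 endosperm genes tested, 15 were higher and none lower, and without silique replicate 1 all 16 were. That direction was set by the filter for 14 of the 16, which were under 1 FPKM in every shoot library, so nothing is read from the count. FWA, an imprinted homeobox gene, was at 0.035, 0.0542 and 0 FPKM in shoots and 14.5, 17.5 and 23.9 FPKM in siliques, a difference of 4.22 ± 0.20 (adjusted p = 2.78e-05). PHE1, an imprinted MADS-box gene, was at 0.432, 0.484 and 0.153 FPKM in shoots and 11.3, 12.99 and 13.9 FPKM in siliques, a difference of 3.34 ± 0.16 (adjusted p = 2.98e-05). FIS2, the seed Polycomb subunit, was at 0.0335, 0.00889 and 0.0425 FPKM in shoots and 1.85, 3.18 and 2.86 FPKM in siliques, a difference of 1.8 ± 0.17 (adjusted p = 3.79e-04). These levels were modest and alike in the 3 silique libraries. SUC5, a sucrose carrier of the endosperm, was at 1.88, 1.54 and 1.61 FPKM in shoots and 38.04, 27.02 and 24.4 FPKM in siliques, a difference of 3.5 ± 0.19 (adjusted p = 4.07e-05). Zhoupi (ZOU), which breaks down the endosperm, was at 0.0333, 0 and 0 FPKM in shoots and 13.8, 5.7 and 5.96 FPKM in siliques, a difference of 3.13 ± 0.32 (adjusted p = 5.29e-04). EPR1, an extensin-like protein of the endosperm next to the root tip, was the gene that did not pass, at 1.61, 2.33 and 0.0465 FPKM in shoots and 1958, 14.3 and 17.6 FPKM in siliques (adjusted p = 0.0603) (3.02 with adjusted p = 0.00492 without silique replicate 1).

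Embryo patterning genes were few above the filter: 12 of 20 were tested, 7 were higher and 2 lower, 4 having entered only through siliques. WOX8, of the basal lineage, was listed at 0 in shoots and at 6.78, 5.01 and 4.67 FPKM in siliques (adjusted p = 5.54e-05), and WOX9 was at 0.141, 0.274 and 0.151 FPKM in shoots and 7.19, 6.6 and 6.28 FPKM in siliques, a difference of 2.69 ± 0.12 (adjusted p = 2.63e-05). The meristem gene STM was at 5.45, 4.54 and 4.49 FPKM in shoots and 11.8, 14.6 and 16.2 FPKM in siliques, a difference of 1.37 ± 0.15 (adjusted p = 6.86e-04). WOX2, of the apical lineage, was lower, at 4.43, 5.36 and 5.53 FPKM in shoots and 2.03, 1.12 and 1.44 FPKM in siliques, a difference of -1.28 ± 0.18 (adjusted p = 0.00179), and so was PDF2, a gene of the epidermis, at 60.02, 57.9 and 54.3 FPKM in shoots and 45.2, 38.5 and 44.1 FPKM in siliques, a difference of -0.42 ± 0.11 (adjusted p = 0.0188, and adjusted p up to 0.0727 with another library left out). BBM, which promotes embryo growth, was at 0.0713, 0.183 and 0.152 FPKM in shoots and 3.67, 1.37 and 1.55 FPKM in siliques, a difference of 1.42 ± 0.27 (adjusted p = 0.00645). WUS and CLV3, of the stem cell niche, were under 1 FPKM in all 6 libraries. AIL7 lost its call with the replicate number as a block (adjusted p = 0.0226 and 0.0536).

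Regulators of seed maturation and the genes they serve were not in step across the silique libraries. LEC1 (chr1:7727577-7729617) was listed at 0 in shoots and at 41.2, 34.9 and 35.2 FPKM in siliques (adjusted p = 5.20e-06). FUS3 was at 0.264, 0.475 and 0.223 FPKM in shoots and 21.5, 3.87 and 4.03 FPKM in siliques, a difference of 2.64 ± 0.61 (adjusted p = 0.0132, and 1.91 without silique replicate 1), and ABI3 at 0.152, 0.00918 and 0.0536 FPKM in shoots and 14.3, 1.29 and 1.15 FPKM in siliques (adjusted p = 0.0739) (1.05 with adjusted p = 3.27e-04 without silique replicate 1). LEC1 was thus alike in the 3 silique libraries, while FUS3 and ABI3 were far higher in replicate 1. LEC2 was at 0.0207, 0.017 and 0.0328 FPKM in shoots and 4.13, 1.87 and 2.27 FPKM in siliques, a difference of 1.83 ± 0.23 (adjusted p = 0.00116), and WRI1, which switches on oil synthesis, at 5.79, 6.1 and 5.9 FPKM in shoots and 33.1, 16.2 and 16.6 FPKM in siliques, a difference of 1.65 ± 0.28 (adjusted p = 0.00384). DOG1, the dormancy gene, was at 7.77, 7.43 and 7.74 FPKM in shoots and 16.9, 0.0905 and 0.0725 FPKM in siliques: above the shoots in silique replicate 1 and near 0 in replicates 2 and 3. Of 8 tested regulators, 5 were higher and 0 lower; without silique replicate 1 these were 6 and 1, the fall being DOG1 (-3.0 with adjusted p = 7.56e-06 without silique replicate 1). Of the 8, 4 entered the test only through siliques.

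Seed storage proteins, the 12S cruciferins and 2S albumins that fill the mature embryo, were abundant in 1 silique library only. SESA3, a 2S albumin (chr4:13611796-13612563), was at 0.546, 1.43 and 0 FPKM in shoots and 21258, 1.21 and 0.868 FPKM in siliques. CRA1, a cruciferin (chr5:17756264-17758288), was at 3.8, 0.734 and 2.54 FPKM in shoots and 6270.3, 1.2 and 1.8 FPKM in siliques. OLEO1, the main coat protein of oil bodies (chr4:12900430-12907589), was at 0.41, 0.461 and 0.166 FPKM in shoots and 2352, 2.56 and 2.07 FPKM in siliques (1.3 with adjusted p = 6.78e-04 without silique replicate 1). Silique replicates 2 and 3 lay in the range of the shoots for SESA3 and CRA1, and only slightly above it for OLEO1. All 11 storage genes were at least 2-fold higher in silique replicate 1 than in both others, with a median excess of 11.03 on the log2 scale, and they held 4.61% of the summed FPKM of that library and at most 0.00046% in replicates 2 and 3. Only 3 passed the filter on low values; limma called none of these, and 1 without silique replicate 1, SESA1 (0.99 with adjusted p = 0.0115 without silique replicate 1). The tandem SESA genes are close copies, so their split is uncertain. Of 14 oil body and late embryogenesis genes, 11 were likewise at least 2-fold higher in replicate 1. OLEO3 was the 1 of them called higher, at 0.302, 0.27 and 0.409 FPKM in shoots and 318, 16.6 and 18.4 FPKM in siliques, a difference of 5.17 ± 1.12 (adjusted p = 0.0106, and 3.8 without silique replicate 1). M17 was the 1 called lower, at 1.0, 1.33 and 2.28 FPKM in shoots and 0.801, 0.2 and 0.215 FPKM in siliques, and its call was lost with the replicate number as a block (adjusted p = 0.0329 and 0.0756). OLEO3 had entered the test only through siliques, and M17 only through shoots. HSD1 was listed at 0 throughout.

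The promoters of SESA3, CRA1 and OLEO1 are shown because these genes were far higher in silique replicate 1 than in both others. Each is given as the 250 bases before the start annotated in RefSeq (TAIR10.1), read 5′ to 3′ on the strand of the gene. Capitals mark the RY core (CATGCA, on either strand), bound by FUS3 and ABI3, and the G-box (CACGTG). SESA3 lies on the plus strand with a window of chr4:13611546-13611795, CRA1 on the minus strand with chr5:17758337-17758586, and OLEO1 on the plus strand with chr4:12900180-12900429.
SESA3: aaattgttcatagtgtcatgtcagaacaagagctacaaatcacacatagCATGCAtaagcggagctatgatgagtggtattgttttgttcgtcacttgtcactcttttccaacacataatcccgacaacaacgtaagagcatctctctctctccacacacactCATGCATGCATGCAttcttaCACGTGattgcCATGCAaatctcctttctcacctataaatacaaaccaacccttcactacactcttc
CRA1: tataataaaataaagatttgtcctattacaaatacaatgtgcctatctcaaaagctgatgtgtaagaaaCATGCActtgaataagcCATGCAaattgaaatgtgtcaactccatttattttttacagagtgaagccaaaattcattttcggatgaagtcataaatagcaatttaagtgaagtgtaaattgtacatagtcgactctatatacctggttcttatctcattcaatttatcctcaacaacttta
OLEO1: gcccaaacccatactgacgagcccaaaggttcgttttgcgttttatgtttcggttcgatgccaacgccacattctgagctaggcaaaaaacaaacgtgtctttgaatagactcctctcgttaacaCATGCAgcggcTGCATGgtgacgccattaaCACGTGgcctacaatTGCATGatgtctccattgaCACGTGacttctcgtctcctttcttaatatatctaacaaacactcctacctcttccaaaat
Counting both strands and overlaps, SESA3 held 7 RY matches and 1 G-box, CRA1 2 and 0, and OLEO1 3 and 2. An RY core stood in 9 of 11 storage gene promoters (81.8%) and in 7 of 14 for the oil body and late embryogenesis genes. Among 267 protein-coding genes at least 8-fold higher in silique replicate 1 than in both others, 29.2% held an RY core and 21% a G-box. These 267 include storage and oil body genes, so their shares are not separate from those of the lists. Over all 17832 promoters of genes at 1 FPKM or more in a silique library the shares were 7.97% and 7.45%. Among genes at least 2-fold higher in siliques than in shoots the RY share was 9.68%, among those at least 2-fold lower 8.92%, and over all tested 7.67%. The I-box (GATAAG), known from light-regulated genes, stood in 11.3%, 15.7% and 12.3% of the same sets, the TATA box (TATAAA) in 53.9%, 49.4% and 47.4%, and the telo box (AAACCCTA) in 2.69%, 2.29% and 3.56%. For the G-box these shares were 6.86%, 6.69% and 7.23%. A match is a run of letters and not a shown binding site.

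Silique replicate 1 differed from the other silique libraries well beyond the storage genes. Of 21411 lines at 1 FPKM or more in a silique library, 1888 (8.82%) were at least 2-fold higher in it than in both others and 1016 (4.75%) at least 2-fold lower. At 8-fold these were 314 and 67. Of the 43 photosystem and antenna genes 31 were at least 2-fold lower in it, and of the 19 glucosinolate genes 10 at least 2-fold higher. Clock genes differed in both directions. CCA1, a gene of the morning, was at 3.74, 20.2 and 22.7 FPKM in silique replicates 1, 2 and 3, and TOC1, a gene of the evening, at 74.9, 23.1 and 26.6. By contrast none of the 34 secondary wall genes was 2-fold higher in it and 1 was 2-fold lower. With 1 library on one side, this comparison has no replicate and no test. The 10 genes furthest below the others held 8 that are spread over several lines, and 8 were listed at 0 in replicate 1, such as GR-RBP6 at 0, 5215 and 4466 FPKM. Those values are therefore no measured fall. The 10 furthest above were the storage genes CRU2, CRU3, CRA1 and SESA1 to SESA5 with OLEO1 and the oil body gene CLO1.

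**Figure D4:**
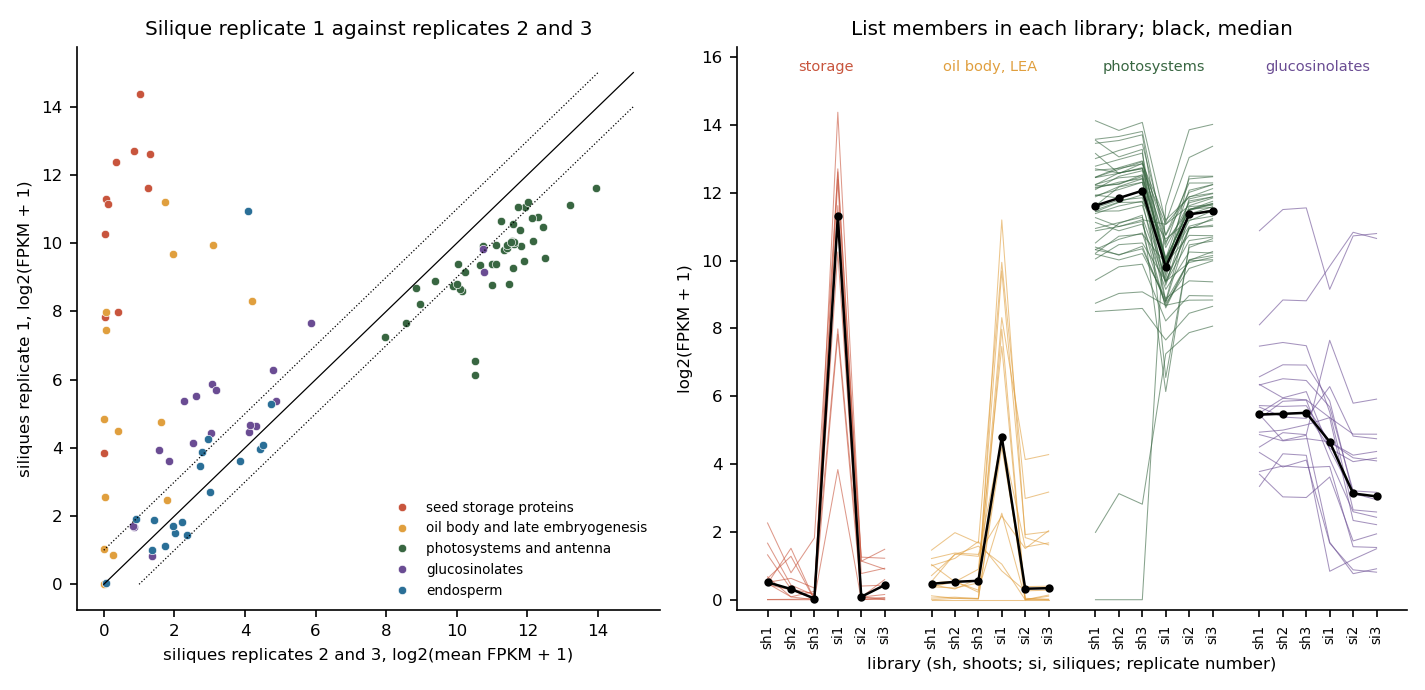
Left, level of list members in silique replicate 1 (y axis) against the mean of replicates 2 and 3 (x axis), both log2(FPKM + 1), with equal levels on the full line and 2-fold on the dotted lines. Right, level of each member (thin lines) and the median (black) in the 6 libraries; storage genes peak in silique replicate 1 alone and photosystem genes are lowest there, and the 1 photosystem gene at 0 in the shoots, LHCB1.3, has failed estimates there.

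Photosystem and antenna genes were mostly lower in siliques, but how many passed turned on silique replicate 1. Of 42 tested, 13 were lower and 1 higher, with a median difference of -1.2; without that library 32 were lower and 2 higher, with a median of -0.66. The background shares for lower lines were 20.9% and 28.8%. After quantile normalization 7 of the genes were lower. LHCA4, an antenna protein of photosystem I, was at 12241, 12958 and 14366 FPKM in shoots and 1422, 5442 and 5683 FPKM in siliques, a difference of -1.9 ± 0.58 (adjusted p = 0.035, and -1.24 without silique replicate 1, and adjusted p up to 0.1 with another library left out). PSBO1, of the oxygen-evolving complex, was at 6493, 6749 and 7395 FPKM in shoots and 1335, 3339 and 3773 FPKM in siliques, a difference of -1.42 ± 0.43 (adjusted p = 0.0345, and adjusted p up to 0.103 with another library left out). The list held 14.5%, 14.9% and 16.5% of the summed FPKM of the shoot libraries and 3.91%, 10.2% and 10.4% of the silique libraries. LHCB1.4, of the main light-harvesting complex, was at 11988, 8537 and 9956 FPKM in shoots and 93.1, 1339 and 1602 FPKM in siliques, a difference of -4.1 ± 1.1 (adjusted p = 0.0227, and -2.78 without silique replicate 1, and adjusted p up to 0.0704 with another library left out). Its family has close copies, of which LHCB1.1, LHCB1.2, LHCB2.1 and LHCB2.2 lie in merged lines, so its share of reads is uncertain.

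One antenna gene ran the other way. LHCB4.3 (chr2:16745653-16747400), a rare form of the CP29 antenna of photosystem II, was at 2.96, 7.75 and 6.05 FPKM in shoots and 151, 234 and 267 FPKM in siliques, a difference of 5.09 ± 0.35 (adjusted p = 1.14e-04). LHCB4.1, a common form of the same protein, was at 4373, 5731 and 6434 FPKM in shoots and 974, 3467 and 3771 FPKM in siliques, a difference of -1.22 ± 0.56 (adjusted p = 0.117, and -0.59 with adjusted p = 0.0452 without silique replicate 1), and LHCB4.2 at 3775, 4654 and 5454 FPKM in shoots and 448, 2655 and 3079.96 FPKM in siliques (-0.68 with adjusted p = 0.0273 without silique replicate 1). The silique values of LHCB4.3 lay above its shoot values without overlap, and those of LHCB4.1 and LHCB4.2 below. The promoters of the pair are shown to set the copies side by side, with capitals for the I-box and the G-box. The windows are chr2:16745378-16745627 for LHCB4.3 and chr5:208616-208865 for LHCB4.1, both on the plus strand.
LHCB4.3: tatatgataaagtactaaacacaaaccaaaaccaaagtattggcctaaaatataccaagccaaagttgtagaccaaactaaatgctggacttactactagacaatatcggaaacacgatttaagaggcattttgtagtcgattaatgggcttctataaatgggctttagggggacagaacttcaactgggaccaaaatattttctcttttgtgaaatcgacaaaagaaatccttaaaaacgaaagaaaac
LHCB4.1: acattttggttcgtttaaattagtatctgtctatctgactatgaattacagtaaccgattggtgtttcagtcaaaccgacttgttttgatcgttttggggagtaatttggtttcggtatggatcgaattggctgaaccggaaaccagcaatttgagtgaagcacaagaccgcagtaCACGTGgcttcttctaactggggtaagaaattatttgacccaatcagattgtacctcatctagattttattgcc
LHCB4.3 held 0 I-box and 0 G-box, and LHCB4.1 0 and 1. Over the list a G-box stood in 21.4% and an I-box in 23.8% of 42 promoters.

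Carbon fixation and photorespiration genes were lower about as often as all lines, 22.2% against 20.9%, but higher less often, 3.7% against 29.9%. Of 27 tested, 6 were lower and 1 higher, with a median of -0.30 against 0.09 over all lines. Without silique replicate 1, 6 were lower and 3 higher, with a median of -0.05. With the replicate number as a block 9 were lower and 2 higher. GGT1, a peroxisomal aminotransferase of photorespiration, fell, at 1048, 1173 and 1209 FPKM in shoots and 423, 405 and 383 FPKM in siliques, a difference of -1.5 ± 0.14 (adjusted p = 3.56e-04), as did the glycolate oxidase GOX2, at 538, 553 and 589.6 FPKM in shoots and 253, 328 and 329 FPKM in siliques, a difference of -0.89 ± 0.15 (adjusted p = 0.00435). CA2, a carbonic anhydrase, was at 982, 1193 and 1312 FPKM in shoots and 256, 478 and 480.2 FPKM in siliques, a difference of -1.57 ± 0.29 (adjusted p = 0.00576), whereas its paralog CA1 was at 675, 1200.3 and 1420.3 FPKM in shoots and 1402, 2189 and 2132 FPKM in siliques, a difference of 0.84 ± 0.35 (adjusted p = 0.0897, and 1.04 with adjusted p = 0.0395 without silique replicate 1). With the replicate number as a block the adjusted p of CA1 was 0.0264. CP12-2, a regulator of the Calvin cycle, rose, at 136, 203 and 222 FPKM in shoots and 305, 333 and 388 FPKM in siliques, a difference of 0.89 ± 0.22 (adjusted p = 0.0165, and adjusted p up to 0.056 with another library left out). RBCS1A, the main small subunit of Rubisco, is on several lines; the most abundant was at 19210.5, 21281 and 22441 FPKM in shoots and 10525, 19698 and 20647 FPKM in siliques. FBA1, an aldolase of the plastid and 1 of the 5 genes of smallest difference, was at 404, 630.5 and 698 FPKM in shoots and 294, 769 and 787 FPKM in siliques.

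**Figure D5:**
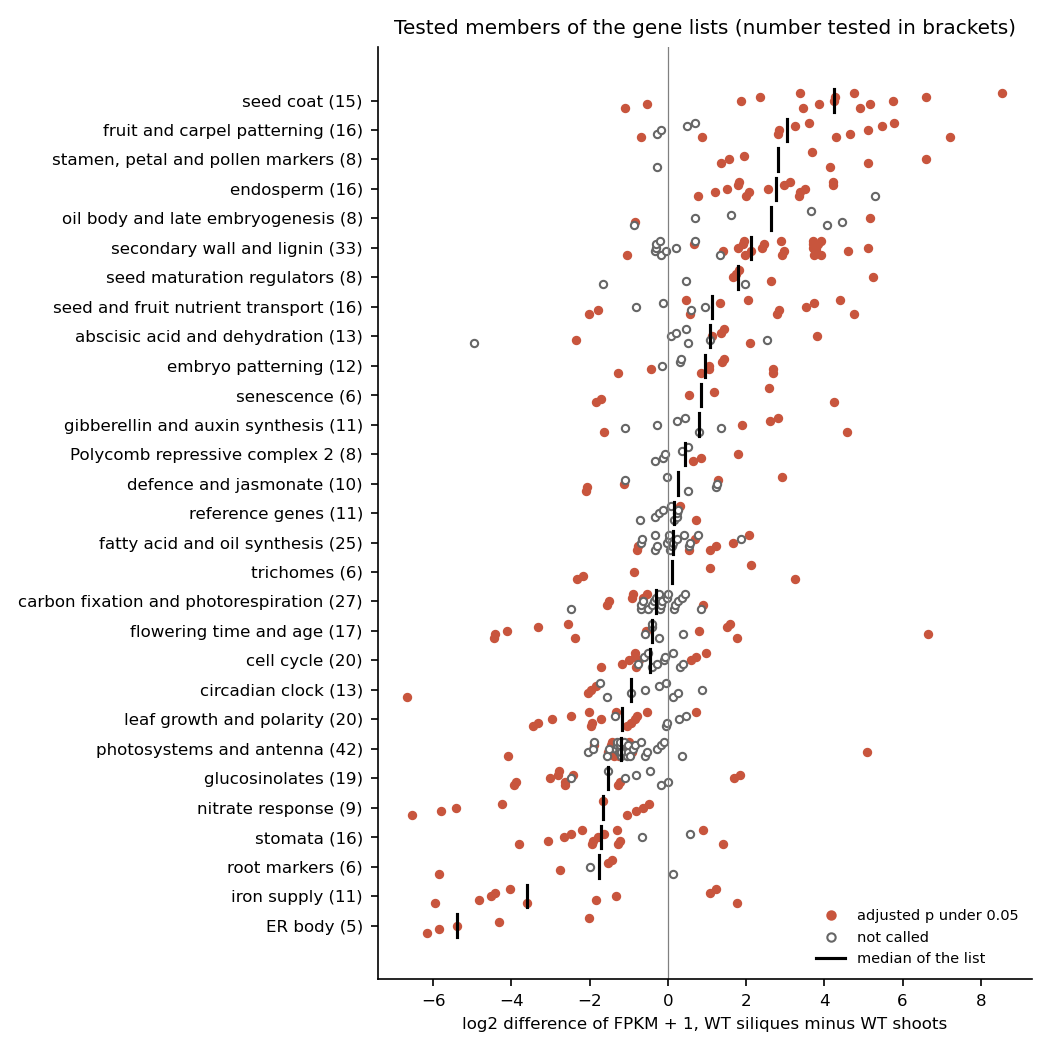
Differences between WT siliques and WT shoots (x axis, log2 of FPKM + 1) of the tested members of each gene list (y axis, number tested in brackets; lists with at least 5 tested), with filled points for those that passed and a black bar for the median. The medians run from -5.4 for the ER body to 4.25 for the seed coat. The ER body list was added after its values were seen, and 9 of the 15 seed coat genes entered the test only through siliques. In the photosystem list 1 gene, LHCB4.3, lies far to the right of the rest.

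Most genes of leaf shape and polarity fell. Of 20 tested, 14 were lower and 1 higher, with a median of -1.19. YAB3, which marks the lower leaf face, was at 41.5, 44.5 and 39.9 FPKM in shoots and 10.1, 2.63 and 3.2 FPKM in siliques, a difference of -2.96 ± 0.42 (adjusted p = 0.00203). Its relative YAB5 was at 43.6, 35.3 and 41.6 FPKM in shoots and 6.14, 1.87 and 1.56 FPKM in siliques, a difference of -3.45 ± 0.40 (adjusted p = 8.53e-04). Both were higher in silique replicate 1 than in the other silique libraries and far below the shoots in all 3. TCP5, a regulator of leaf margin growth, was at 15.7, 21.2 and 22.7 FPKM in shoots and 1.14, 1.11 and 0.982 FPKM in siliques, a difference of -3.31 ± 0.17 (adjusted p = 3.43e-05). GRF3, a growth regulator and target of miR396, was at 52.1, 53.5 and 53.2 FPKM in shoots and 12.2, 7.48 and 7.28 FPKM in siliques, a difference of -2.47 ± 0.20 (adjusted p = 1.83e-04). The 1 rise was ROT3, a brassinosteroid enzyme, at 11.1, 6.38 and 6.62 FPKM in shoots and 15.3, 12.2 and 13.1 FPKM in siliques, a difference of 0.72 ± 0.22 (adjusted p = 0.036, and 0.63 with adjusted p = 0.0644 without silique replicate 1, and adjusted p up to 0.117 with another library left out). KAN1, AS2, AN3, GRF5 and TCP3 did not pass; GRF5 had an adjusted p of 0.0754 (-1.97 with adjusted p = 1.94e-04 without silique replicate 1).

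The stomatal lineage was also lower, with 12 of 16 tested genes lower and 2 higher, and a median of -1.72; 5 of them were under 1 FPKM in every silique library and entered the test only through shoots. SPCH, which starts the lineage, was at 6.96, 8.2 and 6.36 FPKM in shoots and 0.672, 0.135 and 0.148 FPKM in siliques, a difference of -2.65 ± 0.20 (adjusted p = 1.56e-04). MUTE, the second step, was at 3.59, 3.81 and 3.96 FPKM in shoots and 0.498, 0.113 and 0.194 FPKM in siliques, and FAMA, the last, at 11.2, 14.4 and 13.8 FPKM in shoots and 3.63, 5.82 and 5.72 FPKM in siliques, a difference of -1.23 ± 0.20 (adjusted p = 0.00299). SPCH and MUTE were near 0 in siliques while FAMA was at several FPKM. TMM, a receptor of the lineage, was at 24.4, 32.3 and 29.9 FPKM in shoots and 2.72, 0.539 and 0.622 FPKM in siliques, a difference of -3.82 ± 0.36 (adjusted p = 3.94e-04), and EPFL9, the peptide that promotes stomata, at 53.5, 68.1 and 72.7 FPKM in shoots and 12.2, 12.4 and 15.6 FPKM in siliques, a difference of -2.19 ± 0.16 (adjusted p = 1.38e-04). Of guard cell genes, the potassium channel KAT1 was at 14.9, 15.05 and 16.02 FPKM in shoots and 4.05, 4.42 and 4.26 FPKM in siliques, a difference of -1.64 ± 0.10 (adjusted p = 7.05e-05). MYB60, active in guard cells, rose, at 14.5, 14.8 and 13.2 FPKM in shoots and 29.7, 24.1 and 28.7 FPKM in siliques, a difference of 0.90 ± 0.12 (adjusted p = 0.00129). ERL1, a receptor kinase used in many organs, was the other rise, at 2.21, 3.46 and 2.81 FPKM in shoots and 8.82, 9.46 and 8.78 FPKM in siliques, a difference of 1.4 ± 0.16 (adjusted p = 7.04e-04). In the trichome list 3 of 6 were higher and 3 lower. Of the 3 falls, GL1 and MYB23 were under 1 FPKM in every silique library and entered the test only through shoots. GL1, needed to start leaf trichomes, was at 3.88, 3.91 and 4.63 FPKM in shoots and 0, 0 and 0.0893 FPKM in siliques, a difference of -2.32 ± 0.12 (adjusted p = 4.13e-05), and MYB23 at 3.83, 4.95 and 5.64 FPKM in shoots and 0.295, 0.284 and 0.251 FPKM in siliques. GL2, which also acts in the seed coat, was at 5.87, 5.58 and 5.31 FPKM in shoots and 35.01, 25.04 and 23.7 FPKM in siliques, a difference of 2.11 ± 0.17 (adjusted p = 1.78e-04), and the inhibitor TRY at 0.552, 1.27 and 1.02 FPKM in shoots and 6.77, 26.2 and 28.1 FPKM in siliques, a difference of 3.25 ± 0.53 (adjusted p = 0.00349, and 3.87 without silique replicate 1). The median of the trichome list, 0.10, changed sign to -0.32 after quantile normalization and to -0.14 with a pseudocount of 0.1 FPKM.

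Glucosinolates are the mustard oil precursors of the family. Of 19 tested genes, 10 were lower and 2 higher; without silique replicate 1, 15 were lower, with a median of -2.32 in place of -1.53. Synthesis from methionine starts with MAM1, at 177, 191 and 179 FPKM in shoots and 45.3, 5.27 and 5.01 FPKM in siliques, a difference of -3.93 ± 0.80 (adjusted p = 0.00816, and -4.9 without silique replicate 1). Synthesis from tryptophan starts with CYP79B2 and CYP79B3, of which CYP79B3 was at 43.1, 24.97 and 27.8 FPKM in shoots and 2.24, 0.703 and 0.882 FPKM in siliques, a difference of -3.88 ± 0.32 (adjusted p = 2.17e-04). MYB28, which controls the methionine branch, was at 42.2, 43.7 and 44.6 FPKM in shoots and 21.1, 15.8 and 17.1 FPKM in siliques, a difference of -1.24 ± 0.13 (adjusted p = 5.31e-04). Every one of these was lower in siliques, and MAM1 was several times higher in silique replicate 1 than in the other silique libraries. The 2 rises were not synthesis genes: the transporter GTR1 was at 21.7, 29.4 and 28.2 FPKM in shoots and 199.9, 54.6 and 59.4 FPKM in siliques, a difference of 1.69 ± 0.51 (adjusted p = 0.0339, and 1.09 without silique replicate 1, and adjusted p up to 0.101 with another library left out), and the myrosinase TGG2, which cleaves glucosinolates, at 275, 457 and 449.5 FPKM in shoots and 912, 1827 and 1610.2 FPKM in siliques, a difference of 1.85 ± 0.34 (adjusted p = 0.00557). The call of GTR1 was lost with the replicate number as a block (adjusted p = 0.061).

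Secondary wall and lignin genes rose, 23 of 33 tested against 1 lower, with a median of 2.14; 5 of them entered the test only through siliques. The cellulose synthases of the secondary wall were alike across the libraries of an organ: CESA4 was at 8.11, 8.31 and 7.9 FPKM in shoots and 127, 141 and 117 FPKM in siliques, a difference of 3.83 ± 0.10 (adjusted p = 7.13e-06), and CESA7 at 3.35, 3.51 and 3.46 FPKM in shoots and 61.8, 64.8 and 55.7 FPKM in siliques, a difference of 3.8 ± 0.10 (adjusted p = 6.49e-06). NST3, a switch for fibre walls, was listed at 0 in shoots and at 12.2, 14.7 and 15.4 FPKM in siliques (adjusted p = 1.12e-05). NST1, its partner in fibres and the valve margin, is on several lines and was at 0, 0 and 0.0318 FPKM in shoots and 10.3, 13.4 and 13.6 FPKM in siliques. LAC4, a lignin laccase, was at 10.2, 8.87 and 9.35 FPKM in shoots and 138, 146 and 143 FPKM in siliques, a difference of 3.78 ± 0.10 (adjusted p = 6.44e-06). FLA12, a fasciclin-like protein of fibres, was at 11.4, 9.46 and 9.22 FPKM in shoots and 299.6, 421 and 434 FPKM in siliques, a difference of 5.12 ± 0.18 (adjusted p = 1.12e-05). XCP1, XCP2 and VND6, known from xylem vessels and picked after their values were seen, did not pass. CESA4, CESA7 and LAC4, which also carry names of the irregular xylem (IRX) series, rose. No split between fibre and vessel genes is therefore read from this list. XCP1, a protease of dying vessels, was at 16.1, 16.4 and 16.2 FPKM in shoots and 8.36, 16.5 and 15.3 FPKM in siliques (adjusted p = 0.332). Its relative XCP2 was at 38.1, 39.7 and 41.95 FPKM in shoots and 26.8, 40.5 and 37.6 FPKM in siliques (adjusted p = 0.346), and VND6, a vessel switch, at 1.3, 1.47 and 1.29 FPKM in shoots and 0.511, 1.06 and 1.07 FPKM in siliques (adjusted p = 0.129). The fall was FAH1 (ferulate 5-hydroxylase), at 43.3, 60.3 and 63.03 FPKM in shoots and 25.7, 26.2 and 25.6 FPKM in siliques, a difference of -1.06 ± 0.16 (adjusted p = 0.00248).

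Transport into seeds changed gene by gene. Of 16 tested, 10 were higher and 2 lower, 4 having entered the test only through siliques. UMAMIT14, an amino acid exporter of seeds, was at 1.56, 1.73 and 0.941 FPKM in shoots and 43.2, 82.4 and 72.5 FPKM in siliques, a difference of 4.76 ± 0.27 (adjusted p = 5.39e-05). SWEET4, a sugar exporter, was at 1.18, 2.96 and 3.48 FPKM in shoots and 21.7, 25.3 and 23.3 FPKM in siliques, a difference of 2.85 ± 0.28 (adjusted p = 4.55e-04), and SWEET15, of the seed coat, at 1.04, 1.43 and 1.28 FPKM in shoots and 160.4, 11.7 and 12.1 FPKM in siliques, a difference of 3.74 ± 1.0 (adjusted p = 0.0224, and 2.52 without silique replicate 1, and adjusted p up to 0.0682 with another library left out). SWEET15 was far higher in silique replicate 1 than in the others. SWEET11, which loads the phloem in leaves, was at 178, 104 and 103 FPKM in shoots and 232, 39.2 and 37.5 FPKM in siliques, a difference of -0.81 ± 0.73 (adjusted p = 0.391, and -1.67 with adjusted p = 0.00356 without silique replicate 1). The cell wall invertases split, with CWINV4 at 0.0145, 0.059 and 0.0792 FPKM in shoots and 8.43, 13.5 and 12.1 FPKM in siliques, a difference of 3.53 ± 0.19 (adjusted p = 4.29e-05), and CWINV1 at 29.98, 11.8 and 12.5 FPKM in shoots and 6.6, 2.25 and 2.29 FPKM in siliques, a difference of -2.01 ± 0.48 (adjusted p = 0.0154, and adjusted p up to 0.0526 with another library left out). Calls of SUC2 and UMAMIT11 were lost with the replicate number as a block (adjusted p = 0.06 and 0.0509). Of 25 fatty acid and oil genes 6 were higher and 2 lower, and without silique replicate 1, 6 and 7; the median went from 0.14 to -0.12. Over all lines the shares were 29.9% and 20.9%, and 34.8% and 28.8% without that library, so these counts do not set the list apart. FATA, a thioesterase that releases oleate, was at 4.38, 5.54 and 5.63 FPKM in shoots and 34.9, 21.03 and 20.9 FPKM in siliques, a difference of 2.07 ± 0.23 (adjusted p = 6.63e-04). FAE1, which elongates seed fatty acids, was at 0, 0 and 0.0173 FPKM in shoots and 57.3, 0.556 and 0.421 FPKM in siliques and was not tested.

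Enzymes of gibberellin and auxin synthesis moved paralog by paralog. GA20OX2, a late step of gibberellin synthesis, was at 5.2, 3.05 and 2.98 FPKM in shoots and 22.97, 36.6 and 38.6 FPKM in siliques, a difference of 2.83 ± 0.27 (adjusted p = 3.80e-04). GA20OX3, of the same step, was at 0.0392, 0.0985 and 0.0313 FPKM in shoots and 84.2, 12.4 and 13.1 FPKM in siliques, a difference of 4.58 ± 0.72 (adjusted p = 0.00303, and 3.7 without silique replicate 1). GA2OX2, which inactivates gibberellin, was at 2.93, 3.63 and 2.85 FPKM in shoots and 49.6, 16.7 and 16.7 FPKM in siliques, a difference of 2.61 ± 0.43 (adjusted p = 0.00349). Of auxin synthesis, YUC10 was listed at 0 in shoots and at 5.54, 1.58 and 1.97 FPKM in siliques (adjusted p = 0.00614), whereas TAA1 was at 9.64, 7.91 and 8.0 FPKM in shoots and 3.35, 1.47 and 1.69 FPKM in siliques, a difference of -1.63 ± 0.24 (adjusted p = 0.00233). In this list 4 of 11 tested genes were higher (36.4%) and 1 lower (9.09%), and without silique replicate 1, 8 and 2. Of 13 abscisic acid and dehydration genes 5 were higher (38.5%) and 1 lower (7.69%), and without that library 9 and 1. Over all lines the shares were 29.9% and 20.9%, and 34.8% and 28.8% without that library. With all libraries the higher shares of both lists were thus near that of all lines for so few genes. In each of these lists 2 genes entered the test only through siliques. The synthesis genes differed: NCED6, of the endosperm, was listed at 0 in shoots and at 6.77, 2.29 and 2.07 FPKM in siliques (adjusted p = 0.0045), and NCED3, the drought form, was at 9.54, 22.4 and 29.4 FPKM in shoots and 6.61, 1.62 and 1.88 FPKM in siliques, a difference of -2.34 ± 0.56 (adjusted p = 0.0149, and adjusted p up to 0.0542 with another library left out). The call of NCED3 was lost with the replicate number as a block (adjusted p = 0.0505). The phosphatase gene HAI1 was at 0.829, 2.85 and 2.8 FPKM in shoots and 48.97, 35.95 and 39.4 FPKM in siliques, a difference of 3.81 ± 0.32 (adjusted p = 2.41e-04).

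Of 17 tested genes of flowering time and age, 5 were higher (29.4%) and 7 lower (41.2%). Over all lines 29.9% were higher and 20.9% lower, so the higher share does not set the list apart. Of the 17, 2 entered the test only through siliques and 1 only through shoots. FT (chr1:24331428-24333934), the mobile signal that starts flowering, was at 1.78, 1.77 and 1.52 FPKM in shoots and 203, 307 and 319 FPKM in siliques, a difference of 6.66 ± 0.19 (adjusted p = 7.55e-06). FT was thus near the floor in shoots and abundant in all 3 silique libraries. Of genes known as repressors of FT, SVP, TOE1 and SNZ were lower, while FLC did not pass. SVP was at 79.4, 88.4 and 95.7 FPKM in shoots and 2.48, 2.98 and 3.98 FPKM in siliques, a difference of -4.43 ± 0.16 (adjusted p = 1.26e-05), TOE1 at 35.3, 47.04 and 52.4 FPKM in shoots and 1.37, 1.45 and 2.04 FPKM in siliques, a difference of -4.12 ± 0.19 (adjusted p = 2.50e-05), and SNZ at 21.4, 44.9 and 44.02 FPKM in shoots and 2.36, 0.186 and 0.136 FPKM in siliques, a difference of -4.44 ± 0.51 (adjusted p = 8.43e-04). SOC1, which FT activates in the shoot apex, was lower, at 67.6, 98.1 and 113 FPKM in shoots and 8.24, 8.51 and 7.86 FPKM in siliques, a difference of -3.32 ± 0.20 (adjusted p = 5.95e-05). The silique values of these 4 genes lay below their shoot values without overlap. Of the age pathway, SPL3 was at 5.5, 5.26 and 5.43 FPKM in shoots and 12.4, 18.5 and 22.5 FPKM in siliques, a difference of 1.52 ± 0.22 (adjusted p = 0.00196), and SPL4 at 3.87, 7.43 and 6.9 FPKM in shoots and 14.1, 22.9 and 23.7 FPKM in siliques; MIR157c, a precursor gene of a microRNA that represses SPL genes, named after its values were seen, was at 31.4, 22.7 and 23.1 FPKM in shoots and 0.0773, 1.57 and 0.984 FPKM in siliques, a difference of -3.91 ± 0.34 (adjusted p = 2.81e-04). FLC was at 7.35, 4.22 and 3.71 FPKM in shoots and 11.998, 1.1 and 1.19 FPKM in siliques, with silique replicate 1 above every shoot library, and did not pass (adjusted p = 0.535) (-1.46 with adjusted p = 0.00534 without silique replicate 1). TSF, the closest copy of FT, reached at most 0.225 FPKM in siliques.

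Of 8 tested genes of Polycomb repressive complex 2 and its partner LHP1, 3 were higher and none lower. The higher share, 37.5%, is near the 29.9% of all lines for so few genes. FIS2, above, was 1 of the 3 and entered the test only through siliques. The others were MSI1, at 21.7, 22.3 and 21.4 FPKM in shoots and 40.6, 37.4 and 41.99 FPKM in siliques, a difference of 0.84 ± 0.09 (adjusted p = 6.84e-04), and SWN, at 12.8, 12.7 and 12.7 FPKM in shoots and 27.9, 18.5 and 16.7 FPKM in siliques, a difference of 0.65 ± 0.19 (adjusted p = 0.0331, and adjusted p up to 0.0922 with another library left out). CLF was at 8.84, 8.33 and 6.93 FPKM in shoots and 6.15, 6.44 and 6.05 FPKM in siliques, a difference of -0.32 ± 0.13 (adjusted p = 0.0781). MEA, of the seed complex, is on several lines and was at 0.0249, 0.0491 and 0.0304 FPKM in shoots and 2.77, 0.899 and 0.847 FPKM in siliques. Of 20 cell cycle genes 7 were lower and 3 higher, and without silique replicate 1, 11 and 3. CYCD3;1, which drives division in young leaves, was at 28.6, 31.2 and 30.2 FPKM in shoots and 13.3, 6.82 and 6.53 FPKM in siliques, a difference of -1.71 ± 0.26 (adjusted p = 0.00251), while PCNA1, of DNA replication, was at 13.6, 18.4 and 16.7 FPKM in shoots and 27.3, 34.9 and 35.9 FPKM in siliques, a difference of 0.97 ± 0.16 (adjusted p = 0.00363). KN, of cell plate formation, was at 28.2, 42.5 and 39.2 FPKM in shoots and 72.7, 35.6 and 35.2 FPKM in siliques. With the replicate number as a block 5 were lower; CYCA1;1, CYCB1;2 and CYCB1;3 lost their calls (adjusted p = 0.0862, 0.0508 and 0.0613).

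Genes that respond to nitrate and iron supply also differed; both lists were added after values were seen. All 9 nitrate response genes were lower, 8 of them without silique replicate 1. The nitrate reductase NIA1 was at 464, 337 and 336 FPKM in shoots and 12.6, 6.13 and 6.07 FPKM in siliques, a difference of -5.41 ± 0.30 (adjusted p = 4.68e-05). NIA2, the main form in leaves, was at 989, 720.1 and 702 FPKM in shoots and 124, 22.9 and 23.2 FPKM in siliques, a difference of -4.25 ± 0.67 (adjusted p = 0.00293, and -5.04 without silique replicate 1). NRT1.1, the nitrate transceptor, was at 46.02, 32.8 and 32.95 FPKM in shoots and 14.9, 9.49 and 9.53 FPKM in siliques, a difference of -1.65 ± 0.22 (adjusted p = 0.00158). BT2, a scaffold protein induced by nitrate and on several lines, was at 5528, 6745 and 5899 FPKM in shoots and 52.4, 22.5 and 210.03 FPKM in siliques, a difference of -6.55 ± 0.77 (adjusted p = 8.95e-04). Its relative BT1, also on several lines, was at 3388, 1521 and 2169 FPKM in shoots and 60.3, 54.6 and 17.9 FPKM in siliques. Of 11 iron genes 8 were lower and 3 higher; 5 of them entered the test only through shoots. BHLH39, a regulator that is induced when iron is short, was at 29.4, 28.4 and 27.3 FPKM in shoots and 0.366, 0.234 and 0.258 FPKM in siliques, a difference of -4.51 ± 0.11 (adjusted p = 6.44e-06), and BHLH101, also among the 15 largest falls, at 64.2, 57.9 and 66.7 FPKM in shoots and 0, 0.0463 and 0.0539 FPKM in siliques, a difference of -5.95 ± 0.11 (adjusted p = 4.72e-06). The 3 rises were the ferritins, which store iron; FER3 was at 27.4, 37.6 and 33.6 FPKM in shoots and 101, 121 and 123 FPKM in siliques, a difference of 1.78 ± 0.15 (adjusted p = 2.62e-04). BHLH39 and BHLH101 were among the genes that entered only through shoots, and the list was chosen with values seen. These directions are therefore a description. In the circadian clock list, also added, 4 of 13 were lower, and 6 with the replicate number as a block. PRR5, a repressor within the clock, was at 50.3, 61.7 and 60.2 FPKM in shoots and 7.6, 18.6 and 18.2 FPKM in siliques, a difference of -1.97 ± 0.34 (adjusted p = 0.00418). PRR7 was at 111, 120.4 and 115 FPKM in shoots and 18.2, 40.9 and 42.1 FPKM in siliques, a difference of -1.83 ± 0.32 (adjusted p = 0.00477). CCA1 was at 24.9, 46.8 and 47.3 FPKM in shoots and 3.74, 20.2 and 22.7 FPKM in siliques (adjusted p = 0.0974, and 0.0243 with the block). The labels give no hour of harvest, so a part of time of day was not tested.

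Markers of other floral organs were present in the silique libraries. Of 8 tested, 7 were higher, but 7 entered the test only through siliques, so the count is a description. AP3, a petal and stamen identity gene, was at 0, 0.604 and 0.589 FPKM in shoots and 106, 127 and 164 FPKM in siliques, a difference of 6.59 ± 0.25 (adjusted p = 1.46e-05), but its partner PI was at 0.859, 0.579 and 0.733 FPKM in shoots and 5.42, 2.31 and 3.12 FPKM in siliques, a difference of 1.37 ± 0.26 (adjusted p = 0.00614). VGD1, a pectin methylesterase of pollen tubes, was at 0, 0.462 and 0.317 FPKM in shoots and 38.1, 40.8 and 46.98 FPKM in siliques, a difference of 5.1 ± 0.18 (adjusted p = 1.18e-05). AGP6 and AGP11, arabinogalactan proteins of pollen, were named after their values were seen. AGP6 was at 0.448, 1.17 and 0.693 FPKM in shoots and 43.1, 39.8 and 53.4 FPKM in siliques, and AGP11 at 0.269, 0.299 and 0.723 FPKM in shoots and 37.9, 51.4 and 73.8 FPKM in siliques. Tapetum genes were at the floor, with CYP703A2, LAP5 and ATA7 under 1 FPKM in all 6 libraries. Summed over the 13 markers, FPKM was 3.71 to 5.62 in shoots, 191 to 259 in siliques and 1592 to 1918 in WT inflorescences. In inflorescences AP3 was at 189 ± 36.01 FPKM, PI at 215 ± 25.7 and VGD1 at 335 ± 38.3 (SD, n = 3). The part of leftover flowers or pollen was not tested.

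Of 10 defence and jasmonate genes 2 were higher and 3 lower, which is not far from the 29.9% and 20.9% of all lines for so few genes, and their median of 0.25 changed sign to -0.27 without silique replicate 1 and to -0.10 after quantile normalization. LOX2, the first enzyme of jasmonate in leaves, was at 50.1, 90.2 and 81.6 FPKM in shoots and 344, 756 and 648 FPKM in siliques, a difference of 2.93 ± 0.37 (adjusted p = 0.00116), while AOS, the next step, was at 59.2, 67.9 and 75.95 FPKM in shoots and 25.9, 11.4 and 11.7 FPKM in siliques, a difference of -2.08 ± 0.32 (adjusted p = 0.00276). These steps of 1 pathway moved apart. PDF1.2, a defensin, was at 1.84, 8.67 and 5.12 FPKM in shoots and 0.338, 0.414 and 0.118 FPKM in siliques, a difference of -2.1 ± 0.44 (adjusted p = 0.00928). It was the only gene of this list to enter the test through shoots alone. Of 6 senescence genes 4 were higher and 2 lower. Only SAG12 of these entered the test through siliques alone. SAG12, a protease of ageing leaves, was at 0, 0.0809 and 0.0576 FPKM in shoots and 21.2, 17.5 and 17.99 FPKM in siliques, a difference of 4.25 ± 0.13 (adjusted p = 8.80e-06), and the regulator ORE1 at 15.9, 13.1 and 15.6 FPKM in shoots and 5.51, 2.97 and 3.39 FPKM in siliques, a difference of -1.71 ± 0.21 (adjusted p = 0.00113). Of 11 genes used as references 2 passed: ACT7, at 298, 291 and 302 FPKM in shoots and 579.7, 453 and 452 FPKM in siliques, a difference of 0.73 ± 0.15 (adjusted p = 0.00814), and TIP41 (AT4G34270), at 23.3, 22.5 and 23.6 FPKM in shoots and 31.95, 27.4 and 27.8 FPKM in siliques, whose call was lost with the replicate number as a block (adjusted p = 0.0426 and 0.0658). ACT2 was at 449, 274 and 297 FPKM in shoots and 299, 167 and 165 FPKM in siliques, a difference of -0.71 ± 0.31 (adjusted p = 0.1, and -1.0 with adjusted p = 0.0131 without silique replicate 1); with the block its adjusted p was 0.0134. The elongation factor gene AT5G60390 was at 1100.4, 989 and 982 FPKM in shoots and 1224, 1216 and 1229 FPKM in siliques. RPT5A, a proteasome subunit and 1 of the 5 genes of smallest difference, was at 119.6, 102 and 108 FPKM in shoots and 108, 112 and 109 FPKM in siliques.

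Classes of RNA differed in balance. Protein-coding lines were higher in 30.3% and lower in 20.7% of 18692 tested. Long non-coding RNAs were higher in 14.9% and lower in 33.3% of 141, and microRNA precursors in 17.6% and 29.4% of 34. Lines with no annotated gene were higher in 44.7% and lower in 22.1% of 253. The libraries were stranded, but how strand was used in counting is not given in the sources used here, so antisense and overlapping transcripts are uncertain.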

How the data were processed

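Transcript levels were measured by single-end, strand-specific RNA-seq. The authors deposited FPKM per line of 1 table; TopHat, Cufflinks, Cuffdiff and the build TAIR10 are named in the submitters' processing notes, without versions, and no counts were used here. How strand entered the counting is not given in the sources used here. Of the deposited per-sample columns, 48 (bounds of confidence intervals) were not used, and 30 lines with a failed value in the 6 libraries were left out.

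The 6 libraries were compared in limma 3.58.1 (R 4.3.3) on log2(FPKM + 1), with an intensity trend and a robust prior, over lines where 3 or more libraries reached 1 FPKM, with Benjamini-Hochberg adjustment over 20665 lines and 4 residual degrees of freedom. The script was tested on simulated data. A gene on several lines is given by its most abundant line. Lines at 0 in a whole group get no fold. Gene names come from RefSeq (TAIR10.1), which matched 32799 of 33540 gene IDs.

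Members and lists were chosen with earlier results of these data known; lists and genes said to be added or named after values were seen came later still. Genes were named by a rule: the 15 largest rises and falls, the 10 highest levels among those at least 2-fold different in each direction, the 4 smallest p and 2 highest levels of each list, the 10 furthest above and below in silique replicate 1, the 5 smallest differences at 50 FPKM or more, and any member of the fruit, storage, Polycomb and reference lists. The 15 rises and falls, the 10 furthest in silique replicate 1 and the 5 smallest differences were taken among lines with a gene symbol. The 15 also had to pass at 2-fold or more, reach a mean of 5 FPKM in the higher organ and show no overlap. Other genes named with values were chosen after their values were seen.

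Deviations from the group mean correlated at 0.190, 0.125 and 0.198 between silique and shoot libraries of the same number (1, 2 and 3). Between unlike numbers they correlated at -0.179 to 0.105. The main fit took no account of the numbers. Using the number as a block, as an alternative, rests on these correlations and not on the labels. Alternatives were other pseudocounts, filters and scalings, fits over 12, 22 and 24 libraries, the replicate block, and each library left out. Depth is unknown, so no counting interval is given, and p-values measure the spread between libraries.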

Additional observations from a re-analysis of the deposited data

How the results depend on the processing

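The number of lines called was 10506, 11689 with no filter and 8242 with a filter of 5 FPKM, and 9267, 11907 and 10112 with the spread taken over 24, 22 and 12 libraries. Leaving out each library in turn gave 7859 to 13140, the highest without silique replicate 1; the highest count of the other 5 was 9080. A pseudocount of 5 FPKM lowered the lines at least 2-fold higher to 2173 and at least 2-fold lower to 1387, and the lines at least 2-fold above or below in silique replicate 1 to 1110 and 635 (settings for the latter were chosen after seeing the data); a larger pseudocount shrinks fold changes by construction. The share of higher among called lines was 58.8% on the deposited scale, 44.9% after quantile normalization, 55.2% with median-of-ratios factors and 66.98% when scaled without seed storage and oil body genes, with median differences of 0.09, -0.11, 0.03 and 0.22.

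Of 168 named genes that were called, none changed sign past the threshold under these settings. With the replicate number as a block 10174 lines were called; 11 named genes lost the call and 4 gained it, each given in the report, and no other named call changed. Among scalings, 14 named genes lost the call under at least 1, among them BBM, UMAMIT11, AIL7 and ROT3 after quantile normalization, and KNAT6, TTG1, MUM2, PDF2, SWN and M17 when scaled without seed storage and oil body genes. Leaving out a library cost 23 named genes the call at least once, in a fit with fewer residual degrees of freedom. FUS3 and SWEET15 lost theirs with a pseudocount of 5 FPKM. The cause was not tested. With depth unknown, a low FPKM cannot be told from 0.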
